A study of Mus musculus with 9 samples.

Results

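Genes that mark T cells, B cells and natural killer cells were followed in perigonadal white adipose tissue, the fat around the gonads, of mice aged 4 months. The 9 genes are Cd3e, Cd3g, Cd4 and Cd8a for T cells, Klrb1c, Klrk1 and Ncr1 for natural killer cells, and Cd79a and Blnk for B cells. They were chosen by name: every probe set of an Affymetrix exon array whose annotation gave 1 of these symbols and no other was taken, with no filter on brightness. This gave 99 of 208397 probe sets with a single symbol, and 9 of 16299 genes. Each genotype was measured on 3 arrays. G609G/G609G mice, called G609G here, are homozygous for a Lmna allele that makes progerin, the truncated lamin A of Hutchinson-Gilford progeria. LCS/LCS mice, called LCS here, are homozygous for a Lmna allele that leaves lamin C as the only product of the gene. The third group is wild type, WT. Both alleles are germline changes present in all cells of the animal, adipocytes and leukocytes alike. The labels call the arrays of a group biological replicates and do not tie each one to an animal, so the p-values measure the spread between these samples.

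T cells recognise antigen through a receptor that signals through the CD3 chains, with CD4 or CD8 as co-receptor. Natural killer cells carry lectin-like receptors of the killer cell family and the natural cytotoxicity receptor encoded by Ncr1. B cells signal through the CD79A and CD79B chains of their surface immunoglobulin, from which the kinases SYK and BTK, the adaptor BLNK and the phospholipase PLCG2 pass the signal on. Perigonadal fat is known to hold small resident populations of all 3 lymphocyte classes beside its much larger macrophage population.

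Among the 9 genes, Klrb1c, Cd79a and Blnk were lower in G609G fat than in WT fat, and Klrb1c and Cd79a were higher in LCS fat than in WT fat. These calls held on the deposited log2 values and under 3 other scalings between arrays. Of all 16299 genes, 25.8% were likewise called lower in G609G under all 4 scalings, and 14.1% higher in LCS. Klrb1c encodes the NK1.1 antigen of natural killer cells. On the deposited values it lay at least 5.25-fold lower in G609G and 3.27-fold higher in LCS. Cd79a had a log2 change of -0.69 in G609G and lay at least 1.49-fold higher in LCS. Its brightest probe set did not pass the test in G609G. A group mean under the background line of 5.41, explained with the levels, was set at that line for a fold. The fold is then a lower bound, for the deposited values only. No fold is given for Cd79a in G609G, where both means were under the line. Blnk lay 2.87-fold lower in G609G, and its difference in LCS did not pass the test. The co-receptor genes Cd4 and Cd8a, the CD3 chains and the receptors Klrk1 and Ncr1 had no call against WT that held under all 4 scalings. Of these, Cd3e was called higher in G609G under the 3 other scalings but not on the deposited values. Cd3g, Cd8a and Ncr1 were called lower in G609G on the deposited values but not under all scalings. The tissue was measured whole, so fewer cells of a type and less RNA per cell cannot be told apart. Genes of other tissues differed as well. Skeletal muscle genes averaged 11.96 to 12.00 in G609G and 5.24 to 5.34 in WT, and epididymis genes 8.90 to 9.04 and 12.35 to 12.44. Of 28 further natural killer genes, 6 lay above the background line. The same held for 9 of 20 further B cell genes and 9 of 24 further T cell genes. The part of other cells, such as macrophages, and of other tissues in these changes was not tested.

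The levels set how much these genes can show. Olfactory and vomeronasal receptor genes, which fat is not known to use, served as a measure of background: 95% of these 900 genes had a mean below 5.41 on the log2 scale. Cd3e, Klrb1c and Blnk had means over the 9 arrays above that line. Cd79a, at 5.30, lay just below it, and Cd3g, Cd4, Cd8a, Klrk1 and Ncr1 also lay below 4.86, the 25th percentile of all gene means. Of the 7 T cell and natural killer markers, only Cd3e and Klrb1c therefore had a mean clear of background. Cd3d and Cd247, which encode further chains of the same CD3 complex as Cd3e, lay below the background line on every array, between 3.79 and 4.49.

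All 9 genes have to be read against a shift of the G609G arrays. The median gene had a log2 change of -0.29 in G609G minus WT on the deposited values, and of 0.03 in LCS minus WT. The shift depended on level. The median change in G609G minus WT was 0.06 in the dimmest of 4 equal bins of genes by level, -0.35 in the next, -0.55 in bin 3 and -0.44 in the brightest, and the 900 receptor genes at background had a median change of 0.44. Cd3g, Cd4, Cd8a, Klrk1 and Ncr1 fall in bin 1, Cd79a in bin 2, and Cd3e, Klrb1c and Blnk in bin 3. Changes are therefore given on the deposited values first, and also relative to the median gene (each array's median deviation subtracted), after cyclic loess and after quantile normalization. Whether the shift belongs to the tissue or to the authors' normalization cannot be told apart from these values.

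The promoters of the 3 genes that moved are shown because these genes carry the result. Each run is 300 bases of the gene's strand from RefSeq (GRCm38.p6, 250 bases before to 50 after the start of the gene), and capitals mark matches on either strand to motifs known from lymphocyte genes: the octamer ATTTGCAT, the ETS core GGAAGT, the RUNX site TGTGGT and the E-box CAGGTG. The windows are chr6:128788592-128788891 on the minus strand for Klrb1c, chr7:24897247-24897546 on the plus strand for Cd79a and chr19:40994172-40994471 on the minus strand for Blnk. Such windows were given for 8 of the 9 genes.
Klrb1c: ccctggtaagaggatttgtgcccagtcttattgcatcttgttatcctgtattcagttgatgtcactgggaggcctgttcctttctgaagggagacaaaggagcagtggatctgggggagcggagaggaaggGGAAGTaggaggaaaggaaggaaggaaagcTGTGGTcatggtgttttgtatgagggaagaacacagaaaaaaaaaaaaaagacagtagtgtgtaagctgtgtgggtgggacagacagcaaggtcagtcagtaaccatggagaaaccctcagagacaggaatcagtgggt
Cd79a: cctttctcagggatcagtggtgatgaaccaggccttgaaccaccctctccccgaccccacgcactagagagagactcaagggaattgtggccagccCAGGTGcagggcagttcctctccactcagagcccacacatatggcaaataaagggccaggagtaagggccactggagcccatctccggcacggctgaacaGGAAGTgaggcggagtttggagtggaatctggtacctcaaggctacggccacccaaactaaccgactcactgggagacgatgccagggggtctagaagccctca
Blnk: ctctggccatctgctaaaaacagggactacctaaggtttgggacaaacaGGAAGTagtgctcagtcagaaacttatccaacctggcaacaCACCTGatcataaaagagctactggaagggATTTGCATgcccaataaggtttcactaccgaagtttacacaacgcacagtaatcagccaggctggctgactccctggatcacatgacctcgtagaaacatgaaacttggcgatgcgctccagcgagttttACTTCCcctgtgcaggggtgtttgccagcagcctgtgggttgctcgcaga

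The Klrb1c window holds 1 ETS core and 1 RUNX site, the Cd79a window 1 ETS core and 1 E-box, and the Blnk window the octamer, 2 ETS cores and 1 E-box. Of 32851 mouse promoter windows of the same length, 1.74% hold the octamer, 23.8% the ETS core, 16.8% the RUNX site and 20.2% the E-box. The ETS core is the one motif shared by all 3 windows, and it is also in 1 other of the 8. The matches are a description of these letters and were not tied to the changes below.

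Among the natural killer markers, Klrb1c changed most. Its log2 values were 4.44, 4.84 and 5.15 in G609G fat, 9.58, 9.23 and 9.73 in LCS fat, and 7.71, 7.75 and 7.95 in WT fat. The 3 groups did not overlap: every G609G array lay below every WT array and every LCS array above. The G609G mean of 4.81 fell under the 25th percentile of all gene means, and all 3 G609G arrays lay below the background line, so that this group is not above background and linear folds against it are given as lower bounds. The change was -2.99 ± 0.17 (SE) in G609G minus WT, with an adjusted p of 3.7e-08 by limma with Benjamini-Hochberg adjustment over all genes. The change in LCS minus WT was 1.71 ± 0.17, with an adjusted p of 2.09e-05. Between the alleles, G609G lay at least 17.2-fold below LCS on the deposited values. The log2 difference of the measured values there was -4.70, with an adjusted p of 6.73e-10 by limma. After cyclic loess the measured difference was -4.1, a fold of 17.1. The other scalings gave -2.43 to -2.71 in G609G minus WT and 1.66 to 1.70 in LCS minus WT, all called.

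**Figure D1:**
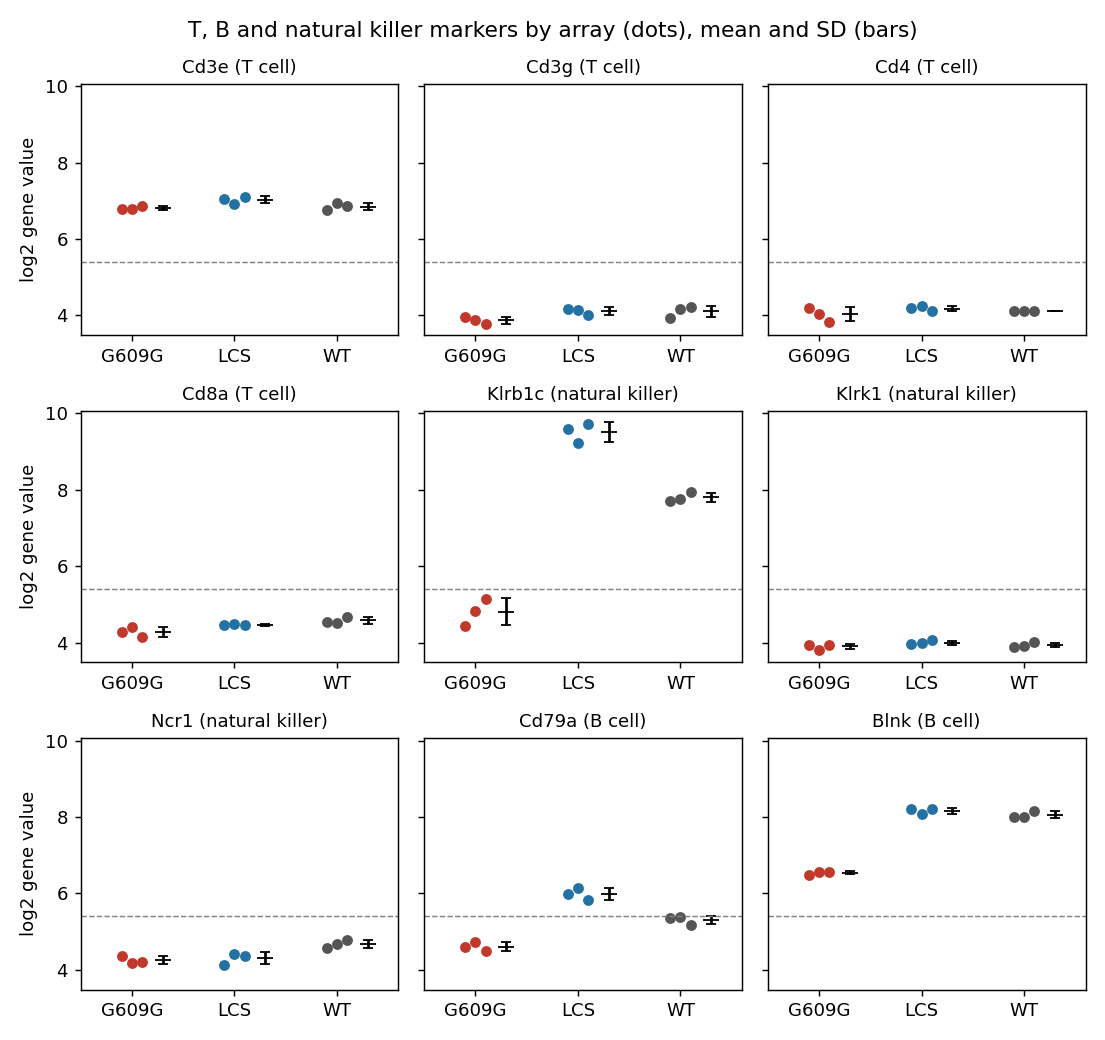
Log2 gene value of each of the 9 lymphocyte markers on each array, in G609G, LCS and WT fat from left to right, with bars for the mean and SD and a dashed line at the background of 5.41. Klrb1c separates the 3 groups, with G609G at 4.44 to 5.15, LCS at 9.23 to 9.73 and WT at 7.71 to 7.95, while Cd3g, Cd4, Cd8a, Klrk1 and Ncr1 stay near background.

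The probe sets of Klrb1c gave the same order of the groups. All 9 were called higher in LCS minus WT, by 1.12 to 2.33 log2 units. In G609G minus WT 8 of 9 were called lower, and all 9 had a value below 0. The largest fall was that of 4947510, which read 5.82, 4.94 and 4.18 in G609G, 11.34, 11.40 and 11.45 in LCS, and 9.85, 9.92 and 10.20 in WT. The probe set 5604497 kept 8.03, 8.08 and 7.66 in G609G fat, against 9.86, 9.90 and 10.00 in WT fat, and so fell by 2.00 log2 units. The remaining 8 probe sets lay between 3.08 and 5.82 on the G609G arrays. Another, 5085367, was at 3.08, 3.24 and 3.31 in G609G and 3.82, 3.41 and 3.75 in WT, and its change did not pass the test (adjusted p = 0.144). Set against the rest of Klrb1c, limma's diffSplice called 8 of the 9 in G609G minus WT and none in LCS minus WT. At an unadjusted p under 0.05, 4 of the 9 passed in LCS minus WT. With 8 of the 9 so low in G609G, a probe set already dim in WT could fall only a little. Exon use was not tested apart from this limit.

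**Figure D2:**
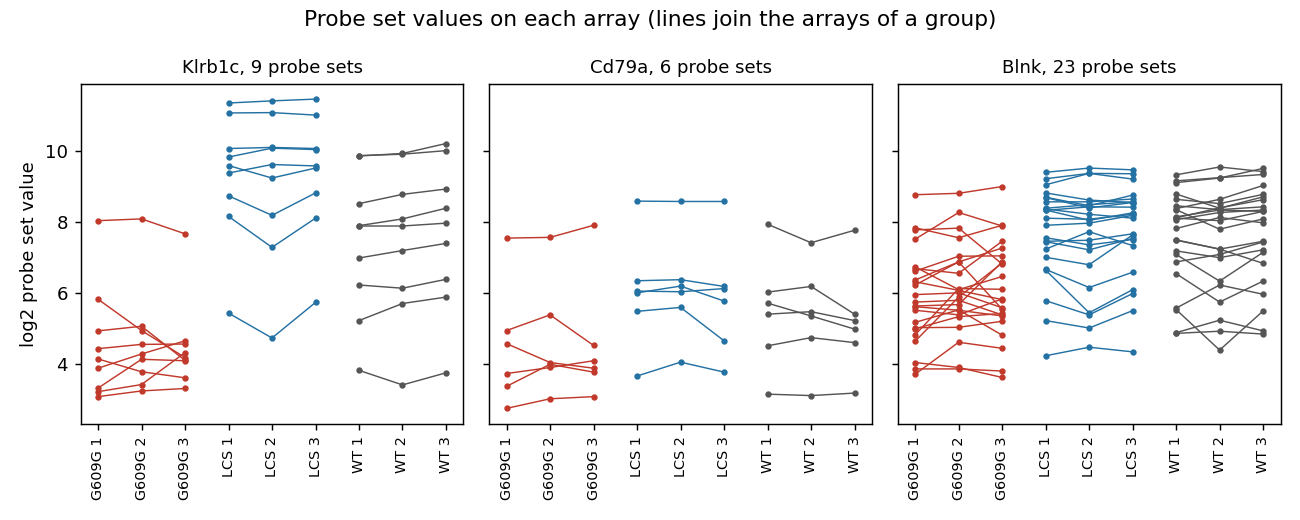
Log2 value of each probe set of Klrb1c, Cd79a and Blnk on each array, with a line per probe set joining the arrays of a group, in G609G, LCS and WT fat from left to right. In Klrb1c, 8 of 9 lines lie between 3.08 and 5.82 on the G609G arrays and 1 stays near 8.

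Klrb1c lies in a cluster of close relatives, and probe sets can share sequence between them, so the split of signal among them is uncertain. 1 further probe set that carried the symbol Klrb1c together with another was left out. Klrb1a, another gene of the same receptor family, had log2 values of 4.21, 4.13 and 4.40 in G609G, 7.78, 7.58 and 7.61 in LCS, and 6.79, 6.90 and 7.04 in WT. Its groups were ordered as those of Klrb1c and did not overlap. Klrb1a fell by 2.66 log2 units in G609G (adjusted p = 1.59e-09) and rose by 0.75 in LCS (adjusted p = 0.000254), called under all 4 scalings. Klrb1b and Klrb1f, further receptors of the family, lay at 3.80 to 4.52 on every array, and neither was called against WT on the deposited values. Of the genes named here, Klrb1b lies directly beside Klrb1c in the RefSeq gene order.

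Ncr1, which encodes the natural cytotoxicity receptor NKp46, gave 4.36, 4.18 and 4.20 in G609G, 4.12, 4.42 and 4.36 in LCS, and 4.57, 4.68 and 4.78 in WT. Both mutants lay below every WT array, at levels near background. The change was -0.43 in G609G minus WT (adjusted p = 0.0029) and -0.38 in LCS minus WT (adjusted p = 0.0171). Relative to the median gene the G609G value was -0.15 and after quantile normalization -0.14, neither called. After cyclic loess the G609G value was -0.40 and called (adjusted p = 0.00539). The median change of bin 1 relative to the median gene was 0.35. The LCS value fell short of a call after quantile normalization, at -0.18. It was also not called without LCS replicate 1 (-0.26, adjusted p = 0.19) or without LCS replicate 3 (-0.31, adjusted p = 0.0927). Of its 7 probe sets, 1 was called lower in G609G minus WT and 2 in LCS minus WT. All 7 had a value below 0 in the first comparison and 6 in the second.

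Klrk1, the gene of the activating receptor NKG2D, lay at 3.93, 3.82 and 3.95 in G609G, 3.96, 3.98 and 4.06 in LCS, and 3.88, 3.92 and 4.01 in WT. Both mutants overlapped WT, and the highest G609G array lay just below the lowest LCS array. Neither allele differed from WT by the test (-0.03, adjusted p = 0.715, and 0.06, adjusted p = 0.641). Relative to the median gene, Klrk1 had a change of 0.25 in G609G (adjusted p = 0.0105), which is below the median change of 0.35 of bin 1 on that scale. Its probe set 5571393, the one whose mean lay above the background line, read 7.39, 7.08 and 7.87 in G609G, 7.57, 7.47 and 7.48 in LCS, and 7.83, 7.14 and 7.87 in WT, with overlapping groups. Of 16 probe sets, limma called 1 lower in G609G minus WT and none in LCS minus WT, where 2 passed at an unadjusted p under 0.05.

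Both B cell members, Cd79a and Blnk, moved in G609G fat, and Cd79a also in LCS fat. Cd79a, the signalling chain of the B cell receptor, had log2 values of 4.60, 4.74 and 4.48 in G609G, 5.98, 6.14 and 5.83 in LCS, and 5.35, 5.37 and 5.18 in WT. No group overlapped another, and the G609G and WT arrays all lay below the background line. The change was -0.69 ± 0.11 (SE) in G609G minus WT, with an adjusted p of 0.000151, and 0.68 ± 0.11 in LCS minus WT, with an adjusted p of 0.000664. Directly compared, the change in G609G minus LCS was -1.38 (adjusted p = 4.87e-07). The other scalings brought the G609G change to between -0.41 and -0.45 and left the LCS change at 0.67 to 0.68, all called.

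Of the 6 probe sets of Cd79a, 4 were called lower in G609G minus WT and 3 higher in LCS minus WT. All 6 had a value below 0 in the first comparison and above 0 in the second. All 6 were called lower in G609G minus LCS. The probe set 5326333 read 7.54, 7.56 and 7.90 in G609G, 8.58, 8.57 and 8.57 in LCS, and 7.93, 7.41 and 7.76 in WT. It did not pass the test in G609G minus WT (-0.03, adjusted p = 0.895), and the groups overlapped, while in LCS minus WT it rose by 0.87 (adjusted p = 0.00389). The probe set 4702086 read 3.37, 3.99 and 3.77 in G609G, 6.34, 6.37 and 6.18 in LCS, and 5.71, 5.35 and 4.98 in WT. The probe set 5326333 was the brightest of the 6, so the fall of Cd79a in G609G fat rested on dimmer ones. Group means of the others ran from 2.95 to 4.95 in G609G, under the background line, and from 3.15 to 5.87 in WT.

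Blnk, the adaptor that links SYK to PLCG2 in B cells and is also known from macrophages, had log2 values of 6.49, 6.56 and 6.57 in G609G, 8.20, 8.07 and 8.21 in LCS, and 8.01, 8.01 and 8.16 in WT. G609G lay apart from both other groups, and LCS and WT overlapped. The change was -1.52 ± 0.07 (SE) in G609G minus WT (adjusted p = 9.57e-09) and -1.62 in G609G minus LCS (adjusted p = 4.35e-09). LCS did not differ from WT by the test, at 0.10 (adjusted p = 0.388). The other scalings gave -0.96 to -1.24 in G609G minus WT, all called. For comparison, the median change of genes in its bin of levels was -0.55 on the deposited values.

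Of the 23 probe sets of Blnk, 22 were called lower in G609G minus WT, 21 in G609G minus LCS and none in LCS minus WT, where 1 passed at an unadjusted p under 0.05. The changes in G609G minus WT ran from -2.89 to -0.39. The smallest was that of 5552079, which read 8.76, 8.80 and 8.99 in G609G, 9.04, 9.36 and 9.20 in LCS, and 9.15, 9.24 and 9.33 in WT. Its fall of 0.39 passed the test (adjusted p = 0.0152), and it stood apart from the other probe sets of Blnk by diffSplice (adjusted p = 0.000401), as did 6 more.

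**Figure D3:**
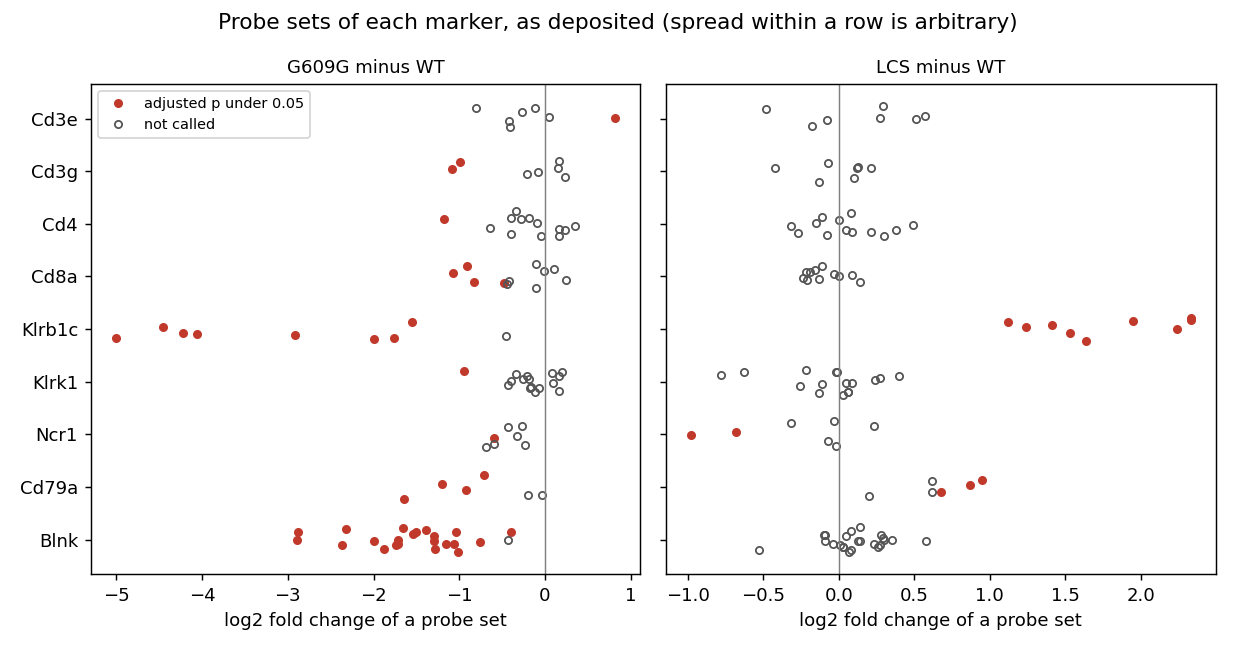
Log2 fold change of every probe set of the 9 genes in G609G minus WT (left) and LCS minus WT (right), with called probe sets filled, where the spread within a gene's row is arbitrary. In G609G minus WT 22 of 23 Blnk probe sets and 8 of 9 Klrb1c probe sets are called lower, and in LCS minus WT all 9 Klrb1c probe sets are called higher.

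The partners of CD79A and BLNK were read beside them. Cd79b, the second signalling chain, had 5.65, 6.12 and 5.95 in G609G, 7.25, 7.28 and 7.21 in LCS, and 6.62, 6.70 and 6.65 in WT, in 3 groups that did not overlap. Cd79b rose by 0.59 in LCS (adjusted p = 0.00191), called under all 4 scalings. In G609G it fell by 0.75 on the deposited values (adjusted p = 8.51e-05), but after cyclic loess its change of -0.23 and after quantile normalization its change of -0.27 were not called. Igh-6, the file's name for the immunoglobulin mu heavy chain gene Ighm, fell by 1.92 in G609G (adjusted p = 6.5e-09) and rose by 0.51 in LCS (adjusted p = 0.0012), under all 4 scalings. Its levels were 7.69, 7.35 and 7.49 in G609G, 10.05, 9.88 and 9.91 in LCS, and 9.33, 9.43 and 9.54 in WT.

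The enzymes downstream did not all follow the receptor chains in LCS fat. Syk fell in both mutants: it fell by 2.52 in G609G (adjusted p = 3.53e-10) and fell by 0.71 in LCS (adjusted p = 6.32e-05), with means of 5.96, 7.77 and 8.48 in G609G, LCS and WT. Plcg2 fell by 1.42 in G609G (adjusted p = 6.92e-07), and its value of 0.13 in LCS was not called. Btk fell by 0.68 in G609G (adjusted p = 0.000274) and had 0.31 in LCS (adjusted p = 0.0698). Its means of 4.32, 5.3 and 4.99 in G609G, LCS and WT all lay below the background line. Syk, Plcg2 and Btk are known to be used by myeloid cells too, and their calls in G609G held under all 4 scalings. Ms4a1, the gene of CD20, lay at 3.88 to 4.46 on all arrays. It was not called in G609G on the deposited values (-0.03, adjusted p = 0.757), and its value of 0.31 in LCS was called (adjusted p = 0.0283).

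Among the T cell markers, Cd3e, the epsilon chain of the CD3 complex, was the only one above the background line. It had 6.78, 6.78 and 6.86 in G609G, 7.04, 6.93 and 7.11 in LCS, and 6.76, 6.94 and 6.86 in WT. G609G overlapped WT, LCS also overlapped WT, and every G609G array lay below every LCS array. On the deposited values neither mutant differed from WT by the test (-0.05, adjusted p = 0.632 in G609G; 0.17, adjusted p = 0.155 in LCS). In G609G the direction depended on the scaling: relative to the median gene it was 0.24 (adjusted p = 0.0168), after quantile normalization 0.35 (adjusted p = 0.00404) and after cyclic loess 0.50 (adjusted p = 0.000113), each called higher. The difference between the alleles was -0.22 on the deposited values (adjusted p = 0.033), and 0.07, 0.20 and 0.37 on the 3 other scales in the same order, the last called higher. The lower call on the deposited values was lost without LCS replicate 1 (adjusted p = 0.082) or LCS replicate 3 (adjusted p = 0.185), and in LCS minus WT a value of 0.30 was called without WT replicate 2 (adjusted p = 0.0364). The 7 probe sets of Cd3e did not move alike in G609G minus WT. Their changes ran from -0.81 to 0.82, with 5 below 0, and limma called only 5420245, as higher (adjusted p = 0.0375). With the median of the probe sets the gene's change was -0.38 (adjusted p = 0.0525 by limma).

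Cd3g, the gamma chain, gave 3.95, 3.88 and 3.78 in G609G, 4.18, 4.15 and 4.00 in LCS, and 3.94, 4.17 and 4.22 in WT. Its values were near background, and G609G overlapped WT. The change in G609G minus WT was -0.24 (adjusted p = 0.0437) and in LCS minus WT it was 0 to 2 decimals. The call in G609G was lost with the replicate number as a block (adjusted p = 0.0614, and 0.0958 on the arrays of the 2 groups alone), and relative to the median gene the value was 0.04. It was also lost without any 1 of G609G replicate 1 (adjusted p = 0.151), 2 (0.198) or 3 (0.221), WT replicate 2 (0.099) or 3 (0.299), or LCS replicate 3 (0.12). In G609G minus LCS, at -0.24 (adjusted p = 0.0445), it was lost without WT replicate 1 or 2, G609G replicate 2 or 3, or LCS replicate 1 or 2, with adjusted p-values between 0.0587 and 0.216.

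Cd4, the helper T cell co-receptor that macrophages also carry in humans and rats, lay at 4.20, 4.05 and 3.84 in G609G, 4.19, 4.24 and 4.12 in LCS, and 4.12 on each WT array. The groups overlapped, or in LCS against WT met at 4.12. Neither allele differed from WT by the test (-0.09, adjusted p = 0.42, and 0.06, adjusted p = 0.709). The probe set 4712532 of the 13 lay well above the background line on all arrays, at 8.65, 8.46 and 7.76 in G609G, 8.14, 8.43 and 7.99 in LCS, and 8.44, 8.49 and 8.07 in WT. It did not separate the groups.

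Cd8a, the cytotoxic T cell co-receptor, gave 4.28, 4.40 and 4.14 in G609G, 4.45, 4.48 and 4.45 in LCS, and 4.55, 4.51 and 4.68 in WT. The 3 groups did not overlap, at levels near background. The change in G609G minus WT was -0.31 (adjusted p = 0.00947), and relative to the median gene it was -0.02 and after quantile normalization -0.10, neither called. After cyclic loess it was -0.27 and called (adjusted p = 0.0182). The median change of bin 1 relative to the median gene was 0.35. The value for LCS minus WT was -0.12 (adjusted p = 0.387). Of 11 probe sets, limma called 4 lower in G609G minus WT and none in LCS minus WT, also at an unadjusted p under 0.05. Cd8b1, which encodes the other chain of the CD8 pair and lies beside Cd8a in the RefSeq gene order, had 3.93 to 4.28 on all arrays and was called against WT under no scaling.

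Over the 9 genes, limma called 6 lower and 0 higher, the same at an unadjusted p under 0.05, in G609G minus WT on the deposited values, where 54.8% of all 16299 genes were called lower, 13% higher and 67.8% either way. The median change of the 9 was -0.31, against -0.29 over all genes. Of the 6, the 3 genes Klrb1c, Cd79a and Blnk were called lower under all 4 scalings, where 25.8% of all genes were, and 0 of 9 higher, where 10.7% were. For LCS minus WT 2 of 9 were called higher and 1 lower, where 15.7% of all genes were called higher, 11.2% lower and 27% either way. The 2, Klrb1c and Cd79a, were called higher under all 4 scalings, where 14.1% of all genes were, and 0 of 9 lower, where 10.4% were. In G609G minus LCS 5 of 9 were called lower and 0 higher (also 0 at an unadjusted p under 0.05), where 52.4% of all genes were called lower, 14% higher and 66.4% either way. Of these, Klrb1c, Cd79a and Blnk were called lower under all 4 scalings, against 25.3% of all genes, and 0 of 9 higher, against 11.5%. The 3 comparisons share arrays pairwise, so their counts are not separate evidence.

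Groups that did not overlap were also common. For G609G minus WT 5 of 9 genes had groups that did not overlap, where 69.5% of all genes did. The count for LCS minus WT was 4 of 9, where 44.1% of all genes did, and in G609G minus LCS 7 of 9, where 70.8% did. Among the 99 probe sets, 43 were called lower and 1 higher in G609G minus WT, against 41.2% and 7.76% of all 229581 probe sets. Of those in LCS minus WT 12 were called higher and 2 lower, against 5.71% and 5.44%, and 9 of the 12 belong to Klrb1c and 3 to Cd79a. Between the alleles 43 were called lower and 0 higher, against 41.7% and 8.9%. By diffSplice, 24 of the 99 stood apart from the rest of their gene in G609G minus WT, where 15.2% of all probe sets tested did, 0 in LCS minus WT, where 2.36% did, and 17 in G609G minus LCS, where 17.1% did. At an unadjusted p under 0.05 diffSplice passed 10 in LCS minus WT, and limma passed 0 higher in G609G minus LCS. Probe sets of 1 gene are not separate measurements of the genotype. As a share, the lower calls of the members and their probe sets in G609G are near those of all genes and probe sets. Higher calls in G609G were fewer, and diffSplice calls in G609G minus WT were more frequent.

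**Figure D4:**
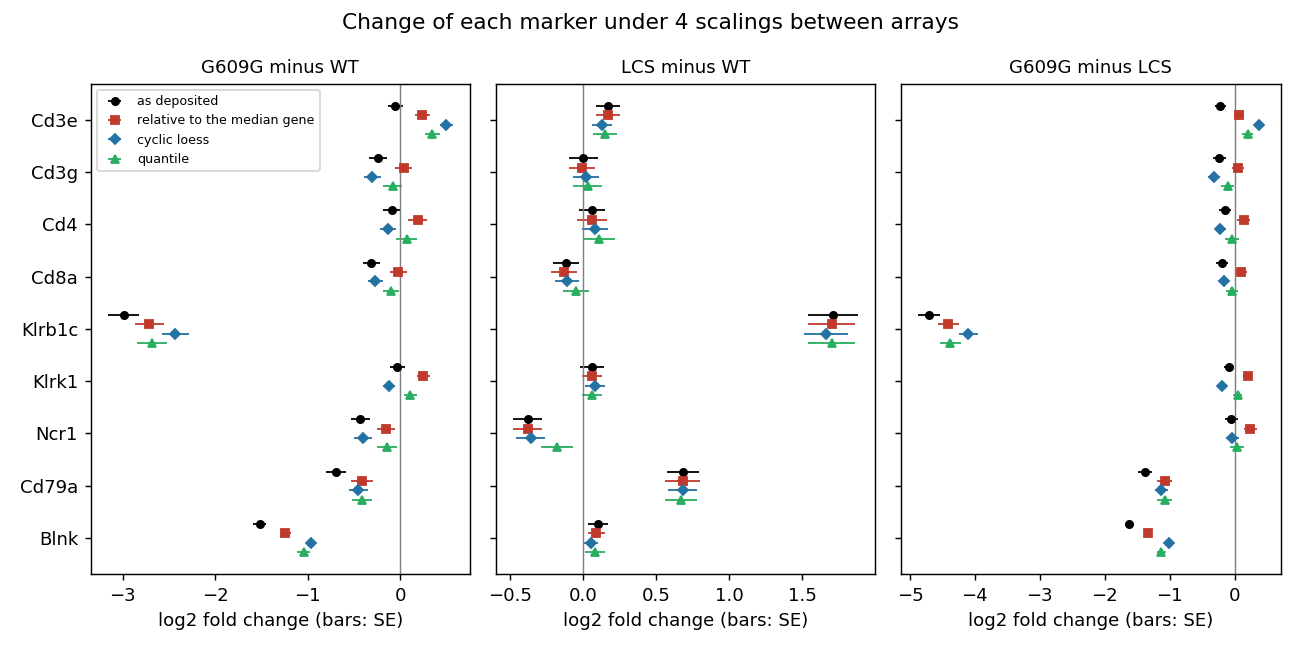
Log2 fold change of each of the 9 genes with its SE, in the 3 comparisons between genotypes, under 4 scalings between arrays. Klrb1c, Cd79a and Blnk stay below 0 in G609G minus WT under all 4, while Cd3e changes from -0.05 as deposited to 0.50 after cyclic loess.

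Further genes of each class were read from lists of known markers. Of 30 T cell genes listed, 24 had a probe set of their own and 9 lay above the background line. In G609G minus WT limma called 0 higher (1 at an unadjusted p under 0.05) and 7 lower, with a median of -0.09, against -0.29 over all genes, of which 54.8% were called lower. The split turned with the scaling. Relative to the median gene 10 were higher and 2 lower (median 0.20), where 32.3% of all genes were called higher and 36.4% lower. After quantile normalization 8 were higher and 2 lower (median 0.20), where 35.6% and 28.4% of all genes were. After cyclic loess 3 were higher and 2 lower (median -0.02), where 29.4% and 30.6% of all genes were. Under all 4 scalings the lower ones were Thy1, which fibroblasts also carry, and Tcf7, a transcription factor of T cells and their innate relatives. Tcf7 had 6.16, 6.42 and 6.40 in G609G, 7.33, 7.27 and 7.30 in LCS, and 8.60, 8.57 and 8.66 in WT, so that both mutants lay below WT. In LCS minus WT 4 were called higher and 2 lower, where 15.7% and 11.2% of all genes were. The median was 0.01, against 0.03 over all genes. Under all 4 scalings Thy1 rose by 0.61 (adjusted p = 0.00025) and Il7r, the interleukin 7 receptor chain, by 0.46 (adjusted p = 0.0164), while Tcf7 fell by 1.30 (adjusted p = 4.76e-07) and Cd7, a T cell and natural killer cell surface protein, by 0.60 (adjusted p = 0.000243). Zap70, the kinase that binds the CD3 chains, was called lower in G609G on the deposited values alone of the 4 scalings (-0.44, adjusted p = 0.0033). Its means in G609G and WT lay below the background line.

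Of 25 B cell genes listed, 20 were measured and 9 lay above the background line. In G609G minus WT limma called 9 lower and 0 higher, also 0 at an unadjusted p under 0.05, with a median of -0.23, where 54.8% of all genes were called lower. Relative to the median gene 5 were higher and 8 lower (median 0.05), after quantile normalization 5 and 7 (median 0.09), and after cyclic loess 0 and 7 (median -0.08), with 0 higher there also at an unadjusted p under 0.05. The shares of all genes called higher and lower were 32.3% and 36.4%, 35.6% and 28.4%, and 29.4% and 30.6% in the same order. Lower under all 4 scalings were 7, where 25.8% of all genes were: Cd72, Cd37, Igh-6, Ebf1, Btk, Syk and Plcg2. In LCS minus WT 6 were called higher and 1 lower, with a median of 0.14, where 15.7% and 11.2% of all genes were. These calls held under all 4 scalings: Cd79b, Ms4a1, Cd37, Igh-6, Ebf1 and Cxcr5 were higher and Syk was lower. Of the genes on this list, Ms4a1, Cxcr5 and Btk had means below the background line in every group. So did Cd22, Pax5, Blk, Cr2, Fcer2a, Pou2af1 and Vpreb3. Ebf1, a transcription factor of B cells that adipocytes and their precursors also use, had 9.38, 9.25 and 9.46 in G609G, 11.10, 11.01 and 11.03 in LCS, and 10.62, 10.55 and 10.62 in WT. Pax5, the B lineage factor that adipocytes are not known to use, had 4.91 to 5.33 on all arrays and was called against WT under no scaling.

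All 28 natural killer genes listed were measured, and 6 lay above the background line. G609G had 1 called higher than WT and 7 lower, with a median of -0.04, where 54.8% of all genes were called lower. The split turned relative to the median gene, with 15 higher and 4 lower (median 0.25), and after quantile normalization, with 9 higher and 4 lower (median 0.16). After cyclic loess it was 3 higher and 6 lower (median -0.07). The shares of all genes called higher and lower were 32.3% and 36.4%, 35.6% and 28.4%, and 29.4% and 30.6% in the same order. Under all 4 scalings Klrc2, a lectin-like receptor, was higher and Klrb1a, Nkg7 and Tyrobp were lower. Tyrobp, the adaptor DAP12 that macrophages also use, fell by 1.12 in G609G (adjusted p = 1.15e-06) and rose by 0.40 in LCS (adjusted p = 0.00892). LCS had 3 called higher than WT and 2 lower, with a median of 0.01, where 15.7% and 11.2% of all genes were. Under all 4 scalings Klrb1a, Tyrobp and Itga2 were higher and the chemokine gene Ccl5 was lower. Klrc2, Itga2 and Klrd1 had means below the background line in every group. Klrd1, the CD94 chain, and Il2rb, the interleukin 2 receptor beta chain, were called lower in G609G on the deposited values alone (-0.36, adjusted p = 0.00276, and -0.38, adjusted p = 0.00398).

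**Figure D5:**
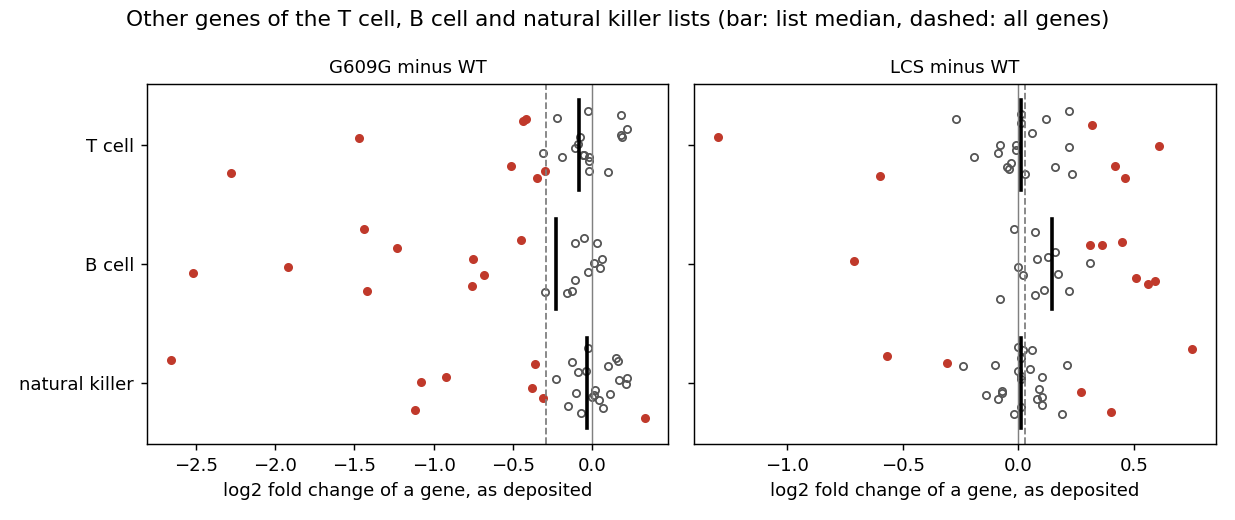
Log2 fold change on the deposited values of each other gene of the T cell, B cell and natural killer lists, called genes filled, with a bar at the list median and a dashed line at the median of all genes. In G609G minus WT (left) the list medians are -0.09, -0.23 and -0.04 and the dashed line is at -0.29, and in LCS minus WT (right) the list medians are 0.01, 0.14 and 0.01 and the dashed line is at 0.03.

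Markers of leukocytes in general and of macrophages also moved. Of 17 measured pan-leukocyte genes, 15 lay above the background line. In G609G minus WT 16 were called lower and 1 higher (median -1.12), where 54.8% and 13% of all genes were. In LCS minus WT 11 were called higher and 1 lower (median 0.29), where 15.7% and 11.2% of all genes were. Ptprc, the CD45 gene, had 6.04, 5.88 and 6.12 in G609G, 7.73, 7.54 and 7.64 in LCS, and 7.51, 7.48 and 7.71 in WT. The exception was Cd52, known from lymphocytes and also abundant in epididymis, with 11.89 to 11.97 in G609G, 9.05 to 9.19 in LCS and 11.78 to 11.81 in WT. Of 22 macrophage and myeloid genes, 18 were called lower and 2 higher in G609G minus WT, and limma called 11 higher and 0 lower, 1 at an unadjusted p under 0.05, in LCS minus WT.

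The mean levels of whole lists on the arrays did not all move the same way. The macrophage list averaged 6.87 to 7.04 in G609G, 8.05 to 8.12 in LCS and 7.74 to 7.80 in WT. Skeletal muscle genes averaged 11.96 to 12.00 in G609G, against 5.55 to 5.65 in LCS and 5.24 to 5.34 in WT. All 9 measured were higher in G609G minus WT under all 4 scalings, where 10.7% of all genes were. Epididymis genes averaged 8.90 to 9.04 in G609G, 10.62 to 10.76 in LCS and 12.35 to 12.44 in WT, and adipocyte genes 10.52 to 10.57 in G609G, 11.91 to 11.92 in LCS and 11.66 to 11.71 in WT. The averages cover members that went both ways. Lep, the leptin gene, was the 1 of 10 adipocyte genes below the background line in G609G, with a mean of 4.76, against 11.78 in LCS and 10.63 in WT. In G609G the epididymis genes Lcn8 (4.59) and Rnase10 (4.50) lay below the line, and in LCS Spint4 (4.80), which had 12.80 in WT. Of the 10 epididymis genes, 3 were higher (Lcn8, Cst11 and Rnase10) and 5 lower in LCS minus WT under all 4 scalings. Over all genes 14.1% and 10.4% were. The other 9 adipocyte genes were above the line in every group, and so were at least 8 of 10 epididymis genes. The part of these other tissues and of macrophages in the values of Klrb1c, Cd79a and Blnk was not tested.

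Genes with the most similar pattern over the 9 arrays were found for the 3 members whose group means differ by 0.5 or more. By Pearson's r, the closest to Klrb1c were Plod1 (0.9986), Abhd14b (0.9986) and Armcx3 (0.9985). The closest to Cd79a were Pp11r, an older symbol of Endou (0.9943), Ncan (0.9926) and Ehbp1l1 (0.9922), and the closest to Blnk were Ptpre (0.9996), Irs3 (0.9995) and Endod1 (0.9992). Plod1 had means of 8.62 in G609G, 10.42 in LCS and 9.80 in WT, and Ptpre had 5.45 in G609G, 7.38 in LCS and 7.21 in WT. The arrays share 3 groups, so that genes with the same order and spacing of group means have a high r whatever they encode. None of the 9 genes named here is on the marker lists.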

How the data were processed

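RNA of perigonadal fat was hybridised to 1-colour Affymetrix exon arrays after biotin labelling, per the labels' protocols, with 3 arrays for each of G609G, LCS and WT. The authors deposited log2 values for 229581 probe sets on each of 9 arrays, running from 2.44 to 14.38. For their normalization, a method was not given in sources used here. The build mm9 is named in the submitters' processing notes. The design text mentions 10 samples; 9 were analysed here. The number of arrays limits the precision.

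The platform annotation gave 208397 probe sets 1 symbol, 3965 several and 17219 none. List genes not matched by a single symbol were not analysed here, and some are not reported here by name. Probe sets of a gene were summarised by median polish (at most 10 rounds). All 16299 genes entered 1 limma fit (lmFit, then eBayes with a trend) of the 9 arrays, and p-values were adjusted by Benjamini-Hochberg, with calls at 0.05. All 229581 probe sets were fitted likewise, and diffSplice set each probe set against the rest of its gene. The code was tested on simulated data.

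The members and marker lists were chosen with earlier results of these data known. Named beside the members are up to 4 genes with the lowest p per list and comparison, the members' signalling partners, and the 3 genes most alike by Pearson's r among those with at least 3 probe sets. Klrb1b, Klrb1f, Pax5 and the other list genes that held under all scalings were named after their values were seen.

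Replicate numbers come from the titles, and the labels do not say what they share. Same-numbered arrays of G609G and WT deviated together from their group means (r = 0.146, 0.115 and 0.298). The main fit did not use this pairing, and its p-values treat the arrays of all 3 comparisons as unpaired. A replicate block was an alternative, beside other summaries, scalings, filters, variance models and tests, and fits without 1 array. Arrays of a group correlated with r from 0.972 to 0.99, and at most 1.89% of values were identical between any 2. Software was R 4.3.3, limma 3.58.1, the packages data.table (version 1.17.8) and matrixStats (version 1.5.0), Python 3.11.15 and matplotlib 3.10.9.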

Additional observations from a re-analysis of the deposited data

Results flagged for a closer look

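Klrb1c and Cd79a were singled out because every G609G array moved below WT while every LCS array moved above WT. The difference between the 2 alleles, fitted as G609G minus LCS with limma over all genes, rests on the same arrays as that choice, so its p-values add no support. It was -4.70 for Klrb1c (adjusted p = 6.73e-10) and -1.38 for Cd79a (adjusted p = 4.87e-07), called under all 4 scalings. Over the leave-one-out fits it ran from -4.95 to -4.53 for Klrb1c and from -1.46 to -1.24 for Cd79a.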

How the results depend on the processing

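In G609G minus WT and G609G minus LCS, Klrb1c, Cd79a and Blnk kept their direction and call under every alternative that tested them, as did Klrb1c and Cd79a in LCS minus WT. Dim genes and Cd3e did not. The cause was not tested beyond what the alternative itself changes. In G609G minus WT the sign turned relative to the median gene for Cd3e (0.24), Cd3g (0.04), Cd4 (0.19) and Klrk1 (0.25), after quantile normalization for Cd3e (0.35), Cd4 (0.07) and Klrk1 (0.11), after cyclic loess for Cd3e (0.50), and without WT replicate 2 for Cd3e (0.01). In G609G minus LCS it turned relative to the median gene for Cd3e (0.07), Cd3g (0.05), Cd4 (0.14), Cd8a (0.10), Klrk1 (0.20) and Ncr1 (0.24), after quantile normalization for Cd3e (0.20), Klrk1 (0.05) and Ncr1 (0.04), after cyclic loess for Cd3e (0.37), and with the median of probe sets for Ncr1 (0.22). In LCS minus WT it turned for Klrk1 with the mean (-0.06) or median (-0.17) of probe sets and for Cd3e with the median (-0.02). The members called in G609G minus WT numbered 6, but 3 with at least 3 probe sets above the 25th percentile, 2 above the receptor line and 3 by the methods' t-test, where the filters test fewer genes. In LCS minus WT they numbered 3, but 1 above the receptor line. In G609G minus LCS they numbered 5, but 3 with the median of probe sets, quantile normalization, the receptor line, the methods' t-test, or without LCS replicate 1. Leaving out 1 array gave 5 to 6 members for G609G against WT, 2 to 4 for LCS against WT and 3 to 6 for G609G against LCS, with 10457 to 11121, 3427 to 5194 and 10083 to 11079 genes called, and 38 to 45, 11 to 14 and 38 to 44 member probe sets. The methods' t-test, at a fold of 1.5 and the methods' unadjusted threshold, called 5829, 1266 and 6059 genes in the same order (5684, 1193 and 5941 after Benjamini-Hochberg), against 11053, 4399 and 10824 by limma. Scaling moved the split of calls in G609G minus WT, with 2127 higher and 8926 lower on the deposited values, 5261 and 5933 after subtracting the median deviation, 4799 and 4986 after cyclic loess, and 5796 and 4624 after quantile normalization. With the replicate block, limma called 5 members for G609G against WT, 3 for LCS against WT and 4 for G609G against LCS. Same-numbered arrays deviated together throughout in G609G minus WT only. The main fit was unpaired there too, and the block changed no member's call but that of Cd3g. In G609G minus LCS the block took Cd3g to an adjusted p of 0.0622, and on the arrays of the 2 groups alone Cd3e to 0.0753. Over all groups 6 of 9 arrays correlated best with an array of their own number, a hint from the data and not the design. Signal near background limits Cd3g, Cd4, Cd8a, Klrk1 and Ncr1.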
